A study of Homo sapiens with 4 samples.

Results

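A set of 8 germline genes, read by 9 probe sets of 54613 on each array, were followed in AGS, a line from a human gastric adenocarcinoma, with and without PRMT6. The genes were PASD1, TEX19, DDX4, DAZL, SYCP3, MAGEA4, MAGEA12 and PRAME, out of 19775 genes named by a probe set with a single symbol. Every probe set that the platform annotation gives to exactly 1 of these symbols was kept, and no probe set named a member together with another gene. The members were selected on earlier results of the same contrast: PASD1 and TEX19 were among the genes with the largest deficits in PRMT6-knockout cells, and the other 6 were added as germline genes. The differences between the groups are therefore given for the members as descriptions, with no test.

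PRMT6 is a nuclear arginine methyltransferase best known for methylating histone H3, and the series title ties the comparison to gastric cancer progression. There were 2 arrays of PRMT6-knockout cells (PRMT6-KO) and 2 arrays of cells with wild-type PRMT6 (control), all at baseline culture. Per the labels, 1 guide RNA in the lentiCRISPR v2 vector was used with puromycin, and knockout clones came from limiting dilution. The labels do not say whether the 2 knockout arrays hold 1 clone or several, or which vector the control cells carried, so a difference between groups cannot be told apart from a difference between clones. Nothing in the labels says that the arrays of a group came from separate cultures, so the spread within a group may be technical. All levels below are log2 intensities and all differences are PRMT6-KO minus control on that scale.

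Germline genes are active in testis, ovary or early embryo and are silenced in most adult tissues by DNA methylation, histone H3 lysine 9 methylation and the Polycomb complex PRC1.6. Tumours often reactivate some of them, and those whose proteins become visible to the immune system are called cancer-testis antigens. Many cancer-testis genes sit on the X chromosome in multicopy families such as MAGE-A, while meiotic genes such as SYCP3 and DAZL are mostly autosomal and single copy.

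Of the members, 3 lie on the X chromosome and the other 5 on autosomes, on assembly GRCh38.p14 of the RefSeq gene table. PASD1 (Entrez gene 139135) spans chrX:151563675-151676739, MAGEA4 (4103) chrX:151912474-151925170 and MAGEA12 (4111) chrX:152733757-152737669. TEX19 (400629) spans chr17:82359247-82363775, DDX4 (54514) chr5:55738061-55817157 and DAZL (1618) chr3:16586792-16605423. SYCP3 (50511) spans chr12:101728648-101739462 and PRAME (23532) chr22:22547701-22559265. The files do not place the probes within exons or untranslated regions.

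RefSeq promoter windows, which run from 250 bases before to 50 bases after a transcript start, were held for 7 of the 8 members, with 15 windows in all; TEX19 had none. The windows of PASD1, of its X-linked neighbour MAGEA4 and of DAZL are shown because PASD1 was the member farthest apart between the groups and the other 2 were dim in both, and because CpG methylation is a known means of silencing such genes. Each is written 5′ to 3′ on the strand of the gene at its outermost start, with every CpG in capitals: chrX:151563425-151563724 on the plus strand for PASD1, chrX:151912224-151912523 on the plus strand for MAGEA4 and chr3:16605374-16605673 on the minus strand for DAZL.
PASD1: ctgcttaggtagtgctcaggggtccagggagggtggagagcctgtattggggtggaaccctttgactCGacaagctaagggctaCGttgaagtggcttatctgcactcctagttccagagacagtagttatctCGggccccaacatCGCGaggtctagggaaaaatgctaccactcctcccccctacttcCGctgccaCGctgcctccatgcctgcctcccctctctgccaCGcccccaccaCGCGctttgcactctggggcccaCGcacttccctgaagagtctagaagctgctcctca
MAGEA4: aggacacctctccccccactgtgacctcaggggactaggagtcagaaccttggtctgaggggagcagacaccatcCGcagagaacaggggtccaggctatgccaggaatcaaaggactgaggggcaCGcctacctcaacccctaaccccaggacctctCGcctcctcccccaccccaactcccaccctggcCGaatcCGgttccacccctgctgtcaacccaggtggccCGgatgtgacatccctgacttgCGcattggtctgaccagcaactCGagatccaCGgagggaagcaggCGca
DAZL: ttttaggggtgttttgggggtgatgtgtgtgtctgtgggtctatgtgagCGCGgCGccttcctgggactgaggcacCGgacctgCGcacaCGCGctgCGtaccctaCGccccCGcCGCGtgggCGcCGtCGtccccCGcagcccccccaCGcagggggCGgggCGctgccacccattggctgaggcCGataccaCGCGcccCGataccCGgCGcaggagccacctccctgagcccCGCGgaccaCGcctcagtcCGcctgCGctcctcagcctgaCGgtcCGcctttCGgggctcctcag

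The PASD1 window held 11 CpG and 59% G or C, the MAGEA4 window 10 CpG and the MAGEA12 window at its outermost start 9 CpG. These counts lay below the median of 14 CpG over all 35116 windows. DAZL held 33 CpG, SYCP3 24 and PRAME 13 at their outermost starts, and the 1 window of DDX4, which is not at its outermost start, held 1. PASD1, which differed most between the groups, was close in CpG count to MAGEA4 and MAGEA12, which were dim in all arrays. DNA methylation was not measured and TEX19 had no window, so nothing is read from these counts.

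Motifs of factors tied to germline gene silencing or to stress and clock control were searched on both strands; each contains a CpG. The E2F6-type letters GCGGGAA were in none of the 15 windows of the members and in 6.55% of all windows. The E-box CACGTG was in 1 of them, an inner window of DAZL, and in 7.26% of all windows. The CRE-like letters TGACGT were in 1, an inner window of MAGEA12, and in 7.98% of all windows. The PASD1 window held none of these letters, which says nothing about binding elsewhere.

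The data rest on arrays with near-identical distributions, with medians of 5.01 to 5.02 over all probe sets, and the number of arrays limits the precision. The 1 probe set of PRMT6 read 7.79 and 7.63 in PRMT6-KO cells, against 8.03 and 8.11 in control cells, and fell by 0.36 (SE 0.09, adjusted p = 0.043 in limma). Since the files do not place the probes relative to the guide, this neither checks nor contradicts the labels. The epithelial identity of the line showed in KRT18, at 13.18 and 13.28 in PRMT6-KO cells and 13.30 and 13.24 in control cells. It also showed in 8 of 9 measured epithelial markers above the median gene on every array. Of the 9, 4 rose and 2 fell, or 66.7%, beside 24.0% of all genes and 40.9% of all genes above the median level. Of 11 measured markers of somatic testis cells, only SOX9, a Sertoli cell gene that gut epithelium also expresses, lay above the median gene; it rose by 0.51 (SE 0.10) and INHA fell by 0.44 (SE 0.11). The share of these testis markers called was 18.2%, beside 24.0% of all genes. The medians of these markers were 4.16 and 4.10 on the PRMT6-KO arrays and 4.14 and 4.23 on the control arrays. As a guide to dim levels, 27 genes of unrelated tissues (such as lens, heart muscle, neurons and blood) had medians of 4.54 and 4.39 on the PRMT6-KO arrays and of 4.34 and 4.49 on the control arrays. These use the brightest probe set of each gene, and detection calls were not used here, so no level can be stated to be above background.

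PASD1 was the member with the largest difference. It is a cancer-testis protein with a PAS domain that is known to inhibit the circadian activator CLOCK-BMAL1. Its probe set read 4.19 and 3.33 in PRMT6-KO cells, against 9.09 and 8.98 in control cells. The groups were far apart: the closest pair of arrays across the groups differed by 4.79 and the farthest by 5.76. Group means were 3.76 ± 0.60 in PRMT6-KO cells and 9.04 ± 0.08 in control cells (SD, n = 2 each), a difference of -5.27 (SE 0.28), or 38.7-fold lower. Only 2 genes of the 19775 had a larger deficit. In control cells the probe set exceeded 91.0% and 90.5% of all probe sets of its array, and in PRMT6-KO cells 36.4% and 22.6%. The PRMT6-KO levels lay below the medians of the unrelated-tissue genes on the same arrays, so the fold is approximate.

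TEX19 was the other member that differed strongly. It is a mammal-specific germ-cell and placental protein, tied in mouse to the control of retrotransposons and to the ubiquitin ligase UBR2. Its probe set read 4.12 and 4.60 in PRMT6-KO cells, against 8.29 and 8.57 in control cells. Again no PRMT6-KO array came near a control array, the closest pair being 3.69 apart. Group means were 4.36 ± 0.34 in PRMT6-KO cells and 8.43 ± 0.20 in control cells (SD, n = 2 each), a difference of -4.07 (SE 0.20), or 16.8-fold lower, the ninth largest deficit of all genes. One PRMT6-KO level lay below and the other above the median of the unrelated-tissue genes of its array, so this fold is approximate too.

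The pair of PRMT6-KO arrays differed from each other in opposite directions for these genes. PASD1 was higher on array 1 by 0.86, a gap that 0.328% of all probe sets exceeded. TEX19 was lower on array 1 by 0.48, a gap that 3.03% of all probe sets exceeded. The control arrays lay closer together for PASD1, where 57.6% of all probe sets had a larger gap, and less so for TEX19 (19.6%). Leaving out PRMT6-KO array 1 gave a PASD1 difference of -5.70, and leaving out array 2 gave -4.85.

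**Figure D1:**
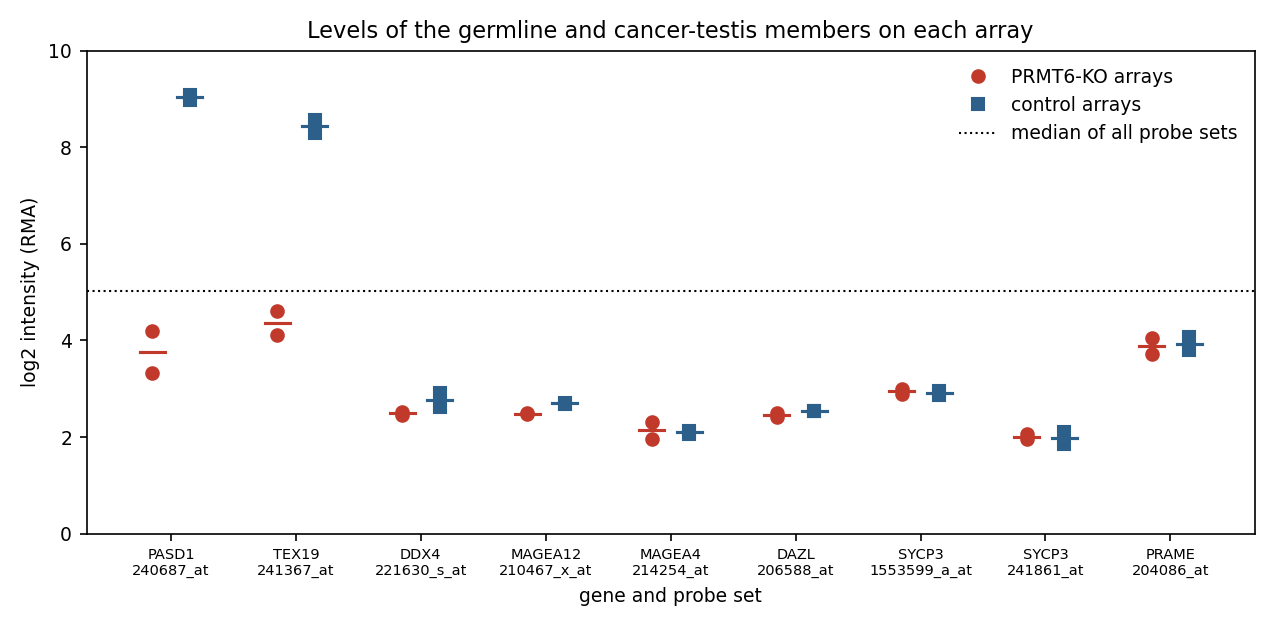
Log2 intensity of the 9 member probe sets, with circles for the 2 PRMT6-KO arrays and squares for the 2 control arrays, short lines for the group means and a dotted line for the median of all probe sets. PASD1 and TEX19 lie between 3.33 and 4.60 in PRMT6-KO cells and above 8 in control cells, while the other 7 probe sets stay between 1.85 and 4.08 on all arrays.

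The other 6 genes were dim in both groups. Their 7 probe sets lay between 1.85 and 4.08 on all 4 arrays, and their differences ran from -0.28 to 0.04. Of the 7, 4 had lower means in PRMT6-KO cells and 3 had higher means. Each exceeded between 0.117% and 35.1% of the probe sets of its array. Their distance from background is not known here, so small differences do not show that their transcripts were unchanged.

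Among the germ-cell RNA regulators, DDX4, the VASA helicase that marks germ cells, read 2.52 and 2.46 in PRMT6-KO cells, against 2.92 and 2.62 in control cells. The difference was -0.28 (SE 0.13, 95% confidence interval -0.61 to 0.04), and the groups did not overlap. DAZL, an RNA-binding protein that promotes translation in germ cells, read 2.49 and 2.41 in PRMT6-KO cells, against 2.53 and 2.54 in control cells, a difference of -0.09 (SE 0.09). Here too the groups did not overlap, but the gap between them was smaller than the gap between the PRMT6-KO arrays.

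SYCP3, a core protein of the axes of meiotic chromosomes, was the only member with more than 1 probe set. The brighter one read 2.89 and 3.001 in PRMT6-KO cells, against 2.86 and 2.96 in control cells, and the dimmer one 2.06 and 1.95 against 1.85 and 2.11. Both gave a difference of 0.03, with SE 0.10 and 0.12, and the groups overlapped in each. The 95% confidence interval of the brighter probe set ran from -0.21 to 0.28.

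The cancer-testis antigens of the MAGE-A family, which bind RING-type ubiquitin ligases, split in the same narrow range. MAGEA12 read 2.49 and 2.48 in PRMT6-KO cells, against 2.71 and 2.69 in control cells, a difference of -0.21 (SE 0.08, 95% confidence interval -0.43 to 0.00) with no overlap. Its probe set carries the suffix that the manufacturer gives to sets with probes shared among several transcripts, and MAGE-A genes are close copies, so it may read relatives as well. MAGEA4 read 1.96 and 2.32 in PRMT6-KO cells, against 2.07 and 2.12 in control cells, with overlap and a difference of 0.04 (SE 0.14).

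PRAME, a leucine-rich repeat protein that serves as substrate receptor of a cullin 2 ubiquitin ligase and represses retinoic acid receptor signalling, read 4.06 and 3.72 in PRMT6-KO cells, against 4.08 and 3.79 in control cells. The groups overlapped, and the difference was -0.05 (SE 0.16). Array 1 was the higher one in both groups, by more than the groups differed.

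In the fit over all probe sets 2 of the 9, those of PASD1 and TEX19, were called lower in PRMT6-KO cells, where 6.38% of all probe sets were called lower. Both PRMT6-KO arrays lay below both control arrays for 5 of the 9 (PASD1, TEX19, DDX4, MAGEA12 and DAZL), where 25.5% of all probe sets did. No member had both PRMT6-KO arrays above both control arrays. Since the members were chosen by this contrast, nothing is read from these counts, and with any 1 array left out no probe set of the whole table was called by limma (9786 to 13946 at an unadjusted p below 0.05). The median difference was -0.09 over the 9 probe sets and 0.00 over all probe sets.

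The wider set of germline genes was mostly dim as well, and few of its genes were called. The list of germline and cancer-testis genes, with the 8 members left out, held 289 genes, of which 208 were measured by a probe set with 1 symbol. Of these 7 rose and 5 fell (adjusted p below 0.05 in limma, over all 19775 genes), or 5.77%, where 24.0% of all genes were called, 12.4% higher and 11.5% lower. The level matters for such a count: 189 of the 208 genes lay at or below the level of the median gene, and 2 of these were called, while 7.02% of all genes at or below that level were. Of the 19 list genes above it, 10 were called, beside 40.9% of all genes above it. The list median was -0.03, against -0.01 over all genes. Scaling each array to its reference genes moved the median of all genes to -0.34 and that of the list to -0.37, with 4 genes higher and 118 lower.

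The largest fall in this list was that of PAGE4, an X-linked cancer-testis gene best known from the prostate. It read 9.79 and 9.14 in PRMT6-KO cells, against 12.09 and 12.04 in control cells. PAGE4 remained bright in PRMT6-KO cells, unlike PASD1 and TEX19, and fell by 2.60 (SE 0.21, 6.06-fold, adjusted p = 0.0019 in limma). ZNF165, a zinc finger cancer-testis antigen, read 8.75 and 8.69 in PRMT6-KO cells, against 10.41 and 10.21 in control cells, and fell by 1.59 (SE 0.10, adjusted p = 0.00096 in limma). PAGE4 was the 1 gene called among 44 measured X-linked cancer-testis genes, or 2.27%, beside 24.0% of all genes. It was also the 1 gene of that list above the median gene. Its relatives PAGE1 (0.03) and PAGE5 (0.00) were not called.

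SPATA17, a calmodulin-binding protein of spermatogenesis, went the other way. It read 8.51 and 8.72 in PRMT6-KO cells, against 5.08 and 5.11 in control cells, and rose by 3.52 (SE 0.10, 11.5-fold, adjusted p = 0.00022 in limma), with both of its probe sets higher. Among the 84 measured autosomal cancer-testis and testis genes, SPATA17 and SPA17, a sperm protein also found in cilia (0.65, SE 0.07), rose, while ZNF165 and IZUMO1, which sperm need to fuse with the egg (-0.72, SE 0.09), fell. These calls made up 4.76% of the autosomal list, beside 24.0% of all genes. IZUMO1 was dim, at 4.50 and 4.59 in PRMT6-KO cells and 5.32 and 5.21 in control cells. SPA17 and IZUMO1 lost their calls without PRMT6-KO array 1 (adjusted p = 0.067 and 0.072 in limma) and without array 2 (0.069 and 0.066).

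Of 37 measured germ-cell RNA-binding and piRNA genes, 3 rose and 2 fell, or 13.5%, beside 24.0% of all genes. The 4 genes of this list above the median gene were all called, and 1 of the 33 others was. NANOS1, a translational repressor of germ cells that some epithelia also express, read 6.93 and 7.08 in PRMT6-KO cells, against 8.34 and 8.30 in control cells, and fell by 1.31 (SE 0.09, adjusted p = 0.0011 in limma), with both of its probe sets lower. PIWIL2, a piRNA-binding Argonaute protein, read 6.73 and 6.52 in PRMT6-KO cells, against 5.60 and 5.60 in control cells, and rose by 1.02 (SE 0.10). PIWIL4, its relative, fell by 0.59 (SE 0.12), so the pair moved in opposite directions. DND1 and SOHLH2 rose by 0.39 (SE 0.08) and 0.36 (SE 0.08), and SOHLH2 was dim, at 3.06 and 2.997 in PRMT6-KO cells and 2.70 and 2.63 in control cells. DND1 and SOHLH2 lost their calls with any 1 array left out, and PIWIL4 with any but control array 2 (highest adjusted p 0.16, 0.17 and 0.16 in limma). PIWIL2 lost its call without PRMT6-KO array 1 (adjusted p = 0.051).

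Of 39 measured genes of meiotic chromosomes, 2 rose and none fell, or 5.13%, beside 24.0% of all genes. Both were among the 4 genes of this list above the median gene. REC8, the meiotic cohesin subunit, read 9.04 and 8.95 in PRMT6-KO cells, against 8.21 and 7.91 in control cells, and rose by 0.93 (SE 0.12, adjusted p = 0.0062 in limma), while its other probe set gave 0.04. PSMC3IP, a recombination accessory protein that dividing cells also express, rose by 0.47 (SE 0.08). The 7 measured relatives of SYCP3 in the synaptonemal complex (SYCP1, SYCP2, SYCP2L, SYCE1, SYCE1L, SYCE2 and SYCE3) lay between -0.24 and 0.16, with 0 called by limma and 0 at an unadjusted p below 0.05. REC8 lost its call without either PRMT6-KO array (highest adjusted p 0.087 in limma) and PSMC3IP with any 1 array left out (highest 0.11).

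The close relatives of the MAGE members stayed dim. The 5 other measured MAGE-A genes, MAGEA1, MAGEA6, MAGEA8, MAGEA10 and MAGEA11, lay between 2.24 and 3.67 in PRMT6-KO cells and between 2.41 and 3.71 in control cells, with differences of -0.19 to 0.02. None of these, of 6 MAGE-B genes and of 3 MAGE-C genes was called by limma, with 0, 1 and 0 at an unadjusted p below 0.05. The 5 measured relatives of PRAME also had 0 calls in limma, with 0 at an unadjusted p below 0.05; the largest differences were those of PRAMEF12 (-0.14, SE 0.20) and LRRC41 (0.08, SE 0.09), whose 4 probe sets ranged from -0.07 to 0.62. Among 10 measured MAGE genes that most tissues express, limma called 0, with 3 at an unadjusted p below 0.05 and 1 called higher with an intensity trend in the prior. NDN (0.33, SE 0.10) and the brightly expressed MAGED1 (0.28, SE 0.10) had the largest differences there. NDN was dim, at 3.89 and 3.94 in PRMT6-KO cells and 3.47 and 3.70 in control cells. With reference gene scaling NDN and MAGED1 came to -0.005 and -0.06.

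**Figure D2:**
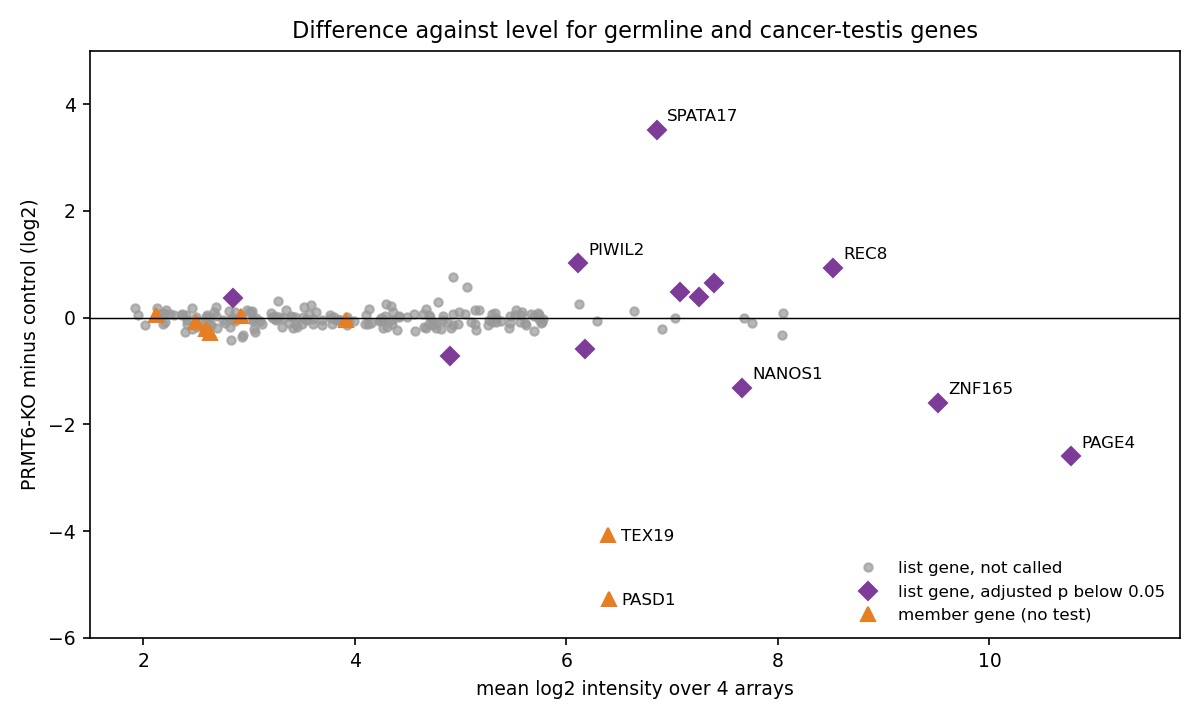
PRMT6-KO minus control (log2) against the mean log2 intensity over 4 arrays for the 208 measured germline and cancer-testis genes (grey circles, or purple diamonds where the adjusted p was below 0.05) and the 8 members (orange triangles, SYCP3 by its brighter probe set). PASD1 and TEX19 lie lowest at -5.27 and -4.07, SPATA17 highest at 3.52, and most genes lie near 0 at low levels.

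Genes listed for a part in silencing the germline programme were bright and moved in both directions. Of 27 measured, all above the median gene, 10 rose and 5 fell, or 55.6%, beside 24.0% of all genes and 40.9% of all genes above the median level. HELLS, a remodeller needed for DNA methylation, read 9.94 and 9.90 in PRMT6-KO cells, against 8.74 and 8.53 in control cells, and rose by 1.29 (SE 0.10, adjusted p = 0.0016 in limma). UHRF1, which brings DNMT1 to replicated DNA, rose by 1.19 (SE 0.10), and the maintenance methyltransferase DNMT1 by 0.81 (SE 0.08). DNMT3B and DNMT3A, which methylate DNA de novo, rose by 0.65 (SE 0.11) and 0.64 (SE 0.09). HELLS, UHRF1 and DNMT1 are also more abundant in dividing cells, and cell division was not measured here.

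The other side of the list was led by MXD1, a MAX-binding repressor. It read 7.09 and 7.16 in PRMT6-KO cells, against 9.02 and 8.94 in control cells. MXD1 fell by 1.86 (SE 0.08, adjusted p = 0.00046 in limma), with all 3 of its probe sets lower. Whether MXD1 takes part in silencing germline genes was not tested, so its fall is not read as that of a germline silencer. E2F6 and MAX, subunits of the PRC1.6 complex that silences meiotic genes, fell by 0.40 (SE 0.07) and 0.39 (SE 0.08). Of the other genes of the list, TFDP1, WDR5, TRIM28, HDAC2 and CBX3 rose by 0.40 to 0.68, while SIN3B and MBD4 fell by 0.41 and 0.36. With gene-specific probe sets the calls of WDR5 (0.51), MAX (-0.31) and MBD4 (-0.09) were lost (adjusted p = 0.054, 0.12 and 0.58 in limma). With the mean of probe sets those of SIN3B (-0.21) and MBD4 (-0.27) were lost (adjusted p = 0.17 and 0.051 in limma). The 3 probe sets of SIN3B ranged from -0.41 to 0.19. The list median was 0.16 on the deposited scale and turned to -0.18 with reference gene scaling, where 7 genes were higher and 11 lower. HELLS, UHRF1 and DNMT1 kept their sign under that scaling, at 0.95, 0.86 and 0.47. DNMT3B, DNMT3A, TFDP1 and WDR5 were also still called higher. TRIM28, HDAC2 and CBX3 came to 0.20, 0.09 and 0.07 and lost their calls (adjusted p = 0.11, 0.34 and 0.51 in limma). With 1 PRMT6-KO array left out, either array 1 or array 2, the list had 1 call, that of MXD1, against 9 without control array 1 and 8 without control array 2. The differences themselves moved little without PRMT6-KO array 1 and without array 2. HELLS gave 1.27 and 1.31, UHRF1 1.16 and 1.22, and DNMT1 0.80 and 0.81. They moved more without control array 1 and without control array 2. There HELLS gave 1.39 and 1.19, UHRF1 1.29 and 1.10, and DNMT1 0.87 and 0.74.

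Clock genes were read because PASD1 is known as an inhibitor of CLOCK-BMAL1. Of 22 measured, 3 rose and 5 fell, or 36.4%, beside 24.0% of all genes. With 16 of the 22 above the median gene, this share lay near the 40.9% of all genes above that level. NFIL3, a repressor of clock output genes, read 8.07 and 8.23 in PRMT6-KO cells, against 9.47 and 9.44 in control cells, and fell by 1.30 (SE 0.09, adjusted p = 0.0012 in limma). NPAS2, a relative of CLOCK, fell by 0.70 (SE 0.11) and the repressor PER2 by 0.60 (SE 0.08), though the other probe set of PER2 gave 0.08. BMAL1 itself read 6.77 and 6.62 in PRMT6-KO cells, against 7.35 and 7.22 in control cells, and fell by 0.59 (SE 0.10), while CLOCK rose by 0.35 (SE 0.08). TIMELESS, which in mammals serves mainly the replication fork, rose by 0.74 (SE 0.08), though its gene-specific probe set gave 0.24. BMAL2 rose by 0.36 (SE 0.09) and NR1D2 fell by 0.50 (SE 0.08). With the mean of probe sets the calls of PER2 (-0.26), CLOCK (0.24) and BMAL2 (0.31) were lost, with adjusted p = 0.10, 0.070 and 0.063 in limma. The list median was -0.03 and became -0.36 with reference gene scaling, in which CLOCK and BMAL2 came to 0.01 and 0.02. Without PRMT6-KO array 1 or array 2 only NFIL3 was called, and without control array 1 or 2 there were 5 and 4 calls.

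Among 26 measured protein partners of the members, 7 rose and 6 fell, so 13 of the 26 were called. Of the 26, 24 lay above the median gene, and 40.9% of all genes above that level were called, or 24.0% of all genes. UBR2, the ubiquitin ligase that binds TEX19 in mouse, read 7.85 and 7.81 in PRMT6-KO cells, against 8.52 and 8.49 in control cells, and fell by 0.68 (SE 0.08, adjusted p = 0.0040 in limma), although its 4 probe sets ranged from -0.68 to 0.07 and their mean gave -0.31 (adjusted p = 0.052). RBX1, the RING subunit of the cullin ligases that PRAME joins, read 11.30 and 11.35 in PRMT6-KO cells, against 10.45 and 10.52 in control cells, and rose by 0.84 (SE 0.08). TRIM27, a ligase bound by MAGE proteins, fell by 0.73 (SE 0.09). The list median was 0.10 and turned to -0.23 with reference gene scaling. Calls in this list numbered 0 without PRMT6-KO array 1 and 0 without array 2 (limma, with 14 and 15 genes at an unadjusted p below 0.05), 8 without control array 1 and 4 without control array 2.

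Because TEX19 is tied to retrotransposons in mouse, genes linked to endogenous retroviruses and other mobile elements were read as well. The list is called retrovirus-derived below, although HHLA2 is only named for an association with a retroviral repeat. Of 15 measured, 1 rose: HHLA2, at 3.44 and 3.44 in PRMT6-KO cells and 3.01 and 2.81 in control cells (0.53, SE 0.10, adjusted p = 0.016 in limma). Its gene-specific probe set gave 0.04 and no call (adjusted p = 0.89), and the call was lost without either PRMT6-KO array or control array 2. The share called was 6.67%, beside 24.0% of all genes and 7.02% of all genes at or below the median level. The list median was 0.00 and became -0.34 with reference gene scaling. Probe sets on the elements themselves were not analysed here.

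**Figure D3:**
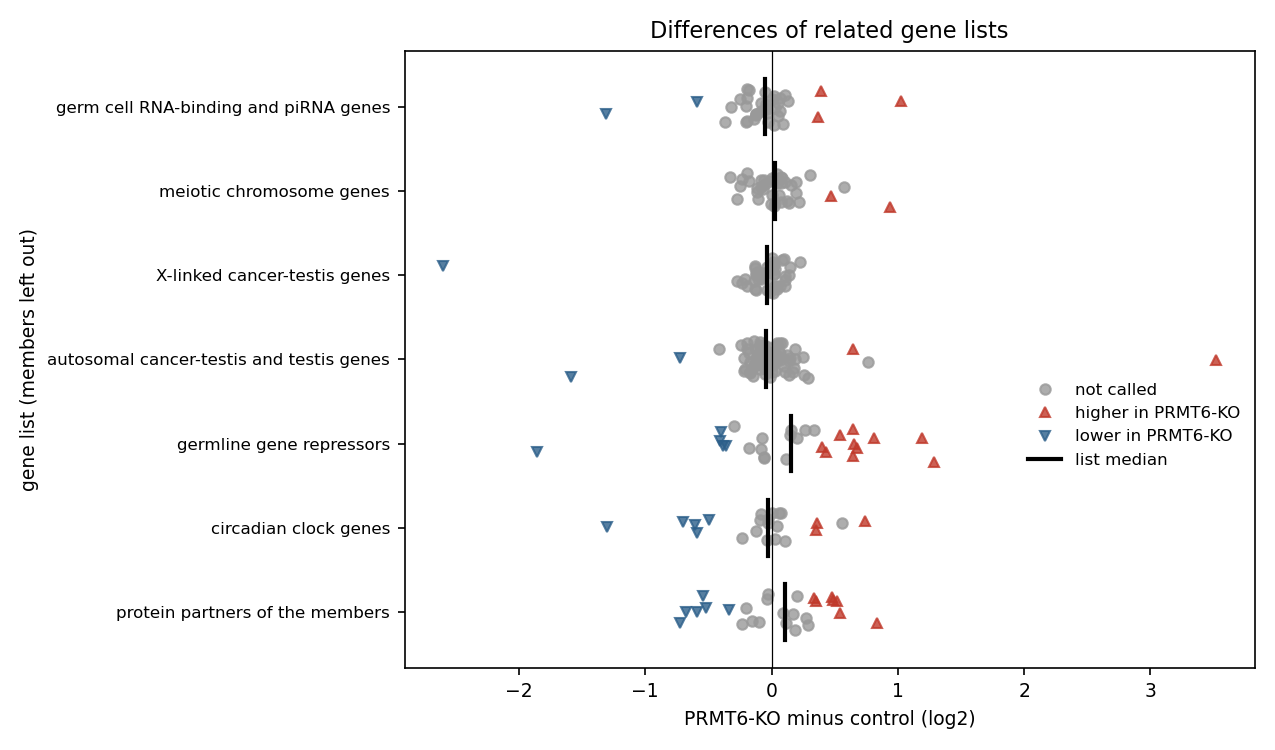
PRMT6-KO minus control (log2) for each measured gene of 7 lists, with triangles up for genes higher and triangles down for genes lower in PRMT6-KO cells at an adjusted p below 0.05, grey circles for the others and black bars for list medians. Germline lists cluster near 0 with single genes far out, such as PAGE4 at -2.60 and SPATA17 at 3.52, while repressor, clock and partner genes spread to both sides.

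The neighbours of PASD1 and TEX19 on their chromosomes did not show deficits of that size. Of the 10 nearest measured genes of PASD1, between chrX:150692962 and chrX:152451315, one is the member MAGEA4. The other 9 had a median difference of 0.01, and 1 was called: HMGB3, a chromatin protein of progenitor cells, read 10.18 and 10.29 in PRMT6-KO cells, against 9.39 and 9.33 in control cells, and rose by 0.88 (SE 0.08, adjusted p = 0.0027 in limma). VMA21 and PRRG3, which flank PASD1, lay at 0.00 and 0.01, and the cancer-testis genes FATE1 and MAGEA10 at -0.08 and 0.01. VMA21 was bright, with a mean of 8.84 in control cells. CD99L2 (5.66), PRRG3 (4.67), FATE1 (4.91), MAGEA10 (3.51), GPR50 (3.51) and GABRA3 (2.72) had dim means in control cells. A deficit as large as that of PASD1 could not have shown in these dim genes.

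Of the 10 nearest measured genes of TEX19, between chr17:82101470 and chr17:82490537, SECTM1 fell by 0.49 (SE 0.10), and CYBC1 (0.38, SE 0.08) and NARF (0.39, SE 0.08) rose. None of their probe sets was called in the fit over all probe sets. With reference gene scaling CYBC1 and NARF came to 0.04 and 0.05, and SECTM1 to -0.83. SECTM1, which encodes a secreted and membrane protein, is the nearest measured gene on 1 side and read 4.69 and 4.83 in PRMT6-KO cells, against 5.16 and 5.34 in control cells. UTS2R, the nearest on the other side, lay at 0.29 and was not called. SECTM1 (5.25), CD7 (5.27), CCDC57 (5.91) and LINC01970 (3.28) had dim means in control cells. A deficit as large as that of TEX19 could hardly have shown in these dim genes. Over the neighbours of all 8 members, 65 genes, 9 rose and 5 fell, or 21.5%, near the 24.0% of all genes. The calls of SECTM1, CYBC1 and NARF were lost with any 1 array left out (highest adjusted p 0.17, 0.15 and 0.18 in limma), and that of HMGB3 without PRMT6-KO array 1 or 2 (0.052 and 0.059).

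**Figure D4:**
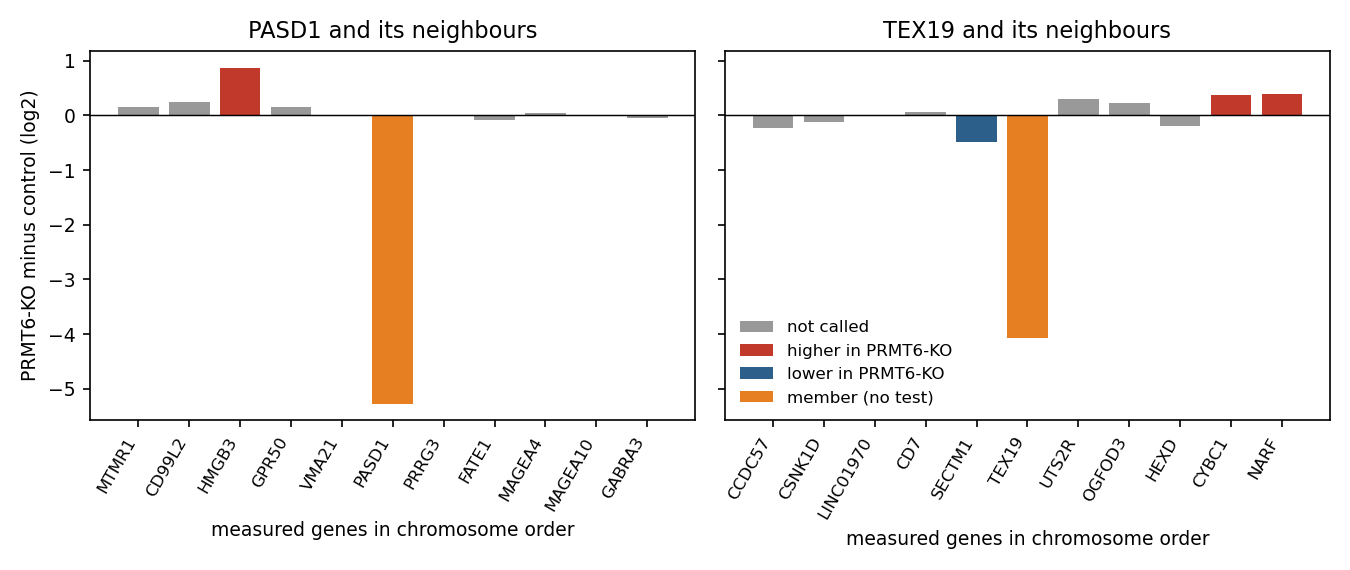
PRMT6-KO minus control (log2) for PASD1 (left) and TEX19 (right) in orange and for the 5 nearest measured genes on each side in chromosome order, coloured where the adjusted p was below 0.05. PASD1 and TEX19 stand at -5.27 and -4.07, while their neighbours lie between -0.49 and 0.88.

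The genes whose pattern over the 4 arrays was most like that of TEX19, by the Euclidean distance between log2 profiles each centred on its own mean, were ERO1B (distance 0.18), LAMP3 (0.30), S100P (0.35), HKDC1 (0.38) and BHLHA15 (0.52). ERO1B, an oxidase of the endoplasmic reticulum, read 4.18 and 4.47 in PRMT6-KO cells, against 8.34 and 8.47 in control cells. Those nearest to PASD1 were farther away: BHLHA15 (1.14), INHBE (1.31), LAMP3 (1.36), HKDC1 (1.37) and ERO1B (1.45). INHBE, an inhibin subunit, read 4.87 and 5.75 in PRMT6-KO cells, against 10.11 and 10.23 in control cells, and thus lay the other way round from PASD1 on the knockout arrays. TEX19 was the 7th nearest gene to PASD1, at 1.55, and PASD1 the 28th nearest to TEX19. The distance holds both the size of the deficit and the gaps between arrays of a group.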

How the data were processed

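Per the submitters' processing notes, the authors processed the arrays with RMA and the affy package; versions are not given in the sources used here. The values they deposited are log2 intensities per probe set, a scale read from the values themselves. RMA quantile-normalizes arrays, so each difference is relative to other transcripts, and it compresses dim differences. Per the labels' protocols, RNA was amplified with a 3′-primed kit.

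Of 54613 probe sets, 41091 had 1 gene symbol in the platform annotation, 1801 several and 11721 none listed; 41037 of those with 1 symbol matched RefSeq (GRCh38.p14) by Entrez number and 54 kept their symbol. Lists used the brightest probe set of each of 19775 genes. The fits of PRMT6-KO minus control used limma 3.58.1 under R 4.3.3 (lmFit, eBayes, no covariates), once over all probe sets and once over all genes, with Benjamini-Hochberg adjustment over each whole table and calls at an adjusted p below 0.05. The main fit over genes was tested on simulated arrays with known changes, and the fit over probe sets and the alternatives were not. The simulation changed few genes and used independent noise, so it does not give the error rate in these data. SDs are over 2 arrays, and SEs are moderated.

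Samples were grouped by their titles. Members and lists were chosen with earlier results of these data known. Named list genes were up to 4 called genes with the largest difference, or the 2 largest where 0 were called, all called neighbours of PASD1 and TEX19, and the 5 genes nearest to each in pattern. Other called genes, and relatives and flanking genes, were named after their values were seen, to spell out small counts. Alternatives were other probe sets per gene, brighter genes only, reference gene scaling, an intensity trend, a replicate block and each array left out.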

Additional observations from a re-analysis of the deposited data

How the results depend on the processing

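The deficits of PASD1 and TEX19 ran from -5.70 to -4.85 and from -4.41 to -3.83 over 8 alternatives. Brighter features only, an intensity trend and a replicate block cannot change a difference of group means, and gave -5.27 and -4.07 again. Reference gene scaling adds the same amount to every gene, and gave -5.61 and -4.41. Only leaving out single arrays could move the deficits otherwise, from -5.70 to -4.85 for PASD1 and from -4.31 to -3.83 for TEX19. No other member probe set reached 2-fold in any alternative. With single arrays left out, the sign changed in 1 of 4 cases for MAGEA4 and in 2 of 4 for PRAME and for each SYCP3 probe set; reference gene scaling, which lowers all genes alike, also turned MAGEA4 and SYCP3 negative. Of 68 called list genes, MXD1, NANOS1, NFIL3, PAGE4, SPATA17 and ZNF165 kept their calls in every alternative. Of the calls on the deposited scale 51.9% were higher, and with reference gene scaling 8.33%. That scaling moved the calls to 12099 of all genes (1008 higher, 11091 lower), 26348 of all probe sets, 122 germline genes, 17 clock genes, 3 widely expressed MAGE genes, 8 retrovirus-derived genes and 40 neighbours. By construction it shifts all genes by the same amount. That the shift was downward follows from the reference genes, which read higher on average on the PRMT6-KO arrays. Which of the 2 scales is nearer to the cells was not tested. The mean of probe sets gave 5 clock genes, 8 partners and 0 retrovirus-derived genes, and gene-specific probe sets gave 5 clock genes and 0 retrovirus-derived genes. With brighter genes only there was 1 widely expressed MAGE gene and 0 retrovirus-derived genes, of 1 left to test; with an intensity trend there was 1 widely expressed MAGE gene. Leaving out 1 array at a time gave 508 to 2629 genes, 0 probe sets (limma, with 9786 to 13946 at an unadjusted p below 0.05), 4 to 10 germline genes, 1 to 9 repressors, 1 to 5 clock genes, 0 to 8 partners, 0 to 2 retrovirus-derived genes and 0 to 5 neighbours; the lone array left in a group is given the spread of the other group, and germline calls were 4 without PRMT6-KO array 1 and 5 without array 2.

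The replicate numbers are shared between groups, but nothing says that they mark a common batch, and deviations of same-numbered arrays correlated at 0.05 over genes. With the number as a replicate block 3972 genes, 5849 probe sets, 14 germline genes, 14 repressors, 6 clock genes, 10 partners, 0 widely expressed MAGE genes (limma, 2 at an unadjusted p below 0.05), 1 retrovirus-derived gene and 12 neighbours were called. Without detection calls, the levels of the 7 dim probe sets have no known distance from background.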

Other observations

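Of the 208 measured germline and cancer-testis genes, 32 exceeded, on at least 1 array of a group, the 90th percentile of the unrelated-tissue genes on both arrays of that group. By list these were 8 of 37 germ-cell RNA-binding and piRNA genes, 6 of 39 meiotic genes, 1 of 44 X-linked cancer-testis genes and 15 of 84 autosomal cancer-testis and testis genes. The 1 X-linked gene was PAGE4. The 10 measured TEX genes of the lists, which share only a name with TEX19, lay between -0.21 and 0.19, and the 5 measured TDRD genes, which encode Tudor-domain partners of PIWI proteins, lay between -0.37 and 0.11. In both families limma called 0 genes, with 0 at an unadjusted p below 0.05.

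Among the autosomal members other than TEX19, SYCP3 had 3 neighbours that rose (PARPBP, UTP20 and NUP37) and 2 that fell (ARL1 and CHPT1). DDX4 had 1 that rose (DHX29) and 1 that fell (CCNO), and DAZL had 1 that fell (TBC1D5). The 3 probe sets of CHPT1 ranged from -0.62 to 0.50, and their mean gave -0.22 (adjusted p = 0.28 in limma). UTP20 (0.66) and CCNO (-0.68), with 1 probe set each, were not called in the fit over all probe sets. Of the neighbours of MAGEA12, CETN2 and NSDHL, a sterol biosynthesis enzyme, rose by 0.69 and 0.94. Of the neighbours of MAGEA4 that are no members, and of those of PRAME, limma called 0, with 1 and 0 at an unadjusted p below 0.05.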
